A study of Mus musculus with 12 samples.

Results

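The change of RNA levels with Treg-directed Hrd1 targeting was compared between natural regulatory T cells (nTreg) and regulatory T cells induced in culture (iTreg), gene by gene. For each gene the log2 difference between the KO and the WT label was taken within iTreg and within nTreg, and the nTreg value was subtracted from the iTreg value. This difference of KO effects uses all 12 of the 12 libraries, 3 in each of 4 groups, and was estimated for 12038 of the 23337 gene symbols in the files. A negative difference means that the KO-minus-WT change was smaller, or more negative, in iTreg than in nTreg.

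All mice were C57BL/6 and 8 weeks old, and every genotype carried FoxP3-cre with GFP, so that Cre was driven from Foxp3 in both labels. The libraries labelled WT came from Hrd1 +/flox mice, which themselves carry 1 floxed allele, and those labelled KO from Hrd1 flox/flox mice. For nTreg, CD4+GFP+ cells were sorted from spleen and lymph nodes. For iTreg, CD4 T cells were kept with IL2 and TGFbeta for 5 days before GFP+ cells were taken, and the labels do not say whether nTreg were removed from the cells put in culture. Total RNA was sequenced on a NextSeq 500 instrument. The labels do not say that replicates are separate mice. Reads of the gene Xist were found in 3 libraries, 1 each of nTreg WT, nTreg KO and iTreg WT. The replicates of these groups were thus not all repeats of the same RNA, and iTreg KO has no such mark. Whether each replicate is a separate mouse stays unknown. The p-values therefore reflect only library-to-library spread, and how much of it is technical was not tested.

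Hrd1, whose gene symbol is Syvn1, is a ubiquitin ligase in the membrane of the endoplasmic reticulum (ER). It works in ER-associated degradation, which removes misfolded proteins from the ER to the proteasome. When folding falls behind, the unfolded protein response starts from sensors in the ER membrane: IRE1 (gene Ern1) leads to the transcription factor XBP1, ATF6 is itself a precursor of one, and PERK (gene Eif2ak3) phosphorylates eIF2alpha and so raises translation of ATF4. ATF4 and its partners drive genes of amino acid uptake and synthesis, a programme also entered from other kinases and called the integrated stress response.

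Total counts ran from 6763458 to 15462894 per library. Treg and CD4 T cell markers, 8 genes, summed to between 4287 and 5612 CPM (read counts scaled to library size, TMM-normalised throughout) in every library, and Foxp3 itself did not pass the test of the difference (-0.15, SE 0.30, adjusted p = 1.0, edgeR). Single Treg and CD4 T cell markers differed between the cell types in spite of the similar sums. Ikzf2 was at 931 to 1274 CPM in nTreg WT and 21.8 to 30.8 CPM in iTreg WT. Il2ra was at 794 to 863 CPM in nTreg WT and 3014 to 3311 CPM in iTreg WT. Myeloid markers, 23 genes, summed to 178 to 566 CPM in nTreg WT and 149 to 1262 CPM in nTreg KO, and to 50 to 84.5 CPM in iTreg. The defining myeloid gene Csf1r was at 95.3 CPM in nTreg WT 2 and 195 CPM in nTreg KO 2, and at 0 in 4 of the 6 iTreg libraries. No myeloid marker of the 21 tested passed the test of the difference, by DESeq2 or by limma voom. At an unadjusted p under 0.05 there was 1, with a negative difference (5.46% of all genes). The sum of 9 B cell markers was 28.9 to 34.3 CPM in nTreg WT and 17.5 to 19 CPM in nTreg KO. The part of these cells in the results was not tested. In bulk RNA, fewer cells of a type and less RNA per cell cannot be told apart.

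The targeted gene, Syvn1 (chromosome 19, 6046576 to 6053712, plus strand, GRCm38, protein-coding), stood at 73.7, 87.2 and 75.5 CPM in nTreg WT and at 146, 137 and 130 CPM in nTreg KO. In iTreg it stood at 61.6, 72.2 and 101 CPM in the WT-labelled libraries and at 54.6, 73.1 and 63.1 CPM in the KO-labelled ones. The nTreg groups did not overlap and the KO label was the higher, whereas the iTreg groups overlapped. The difference of KO effects was -1.10 (SE 0.24) and did not pass (adjusted p = 0.10, edgeR), but it passed with the replicate number as a block (adjusted p = 0.020). The counts cover all exons, so transcripts with a deleted part are still counted and these values do not check the labels, and every direction here follows the label, KO over WT.

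The difference of KO effects passed in 35 genes (0.291% of those tested), with a negative difference in 33 (0.274%) and a positive difference in 2 (0.0166%), Gbp10 and Camk4. At an unadjusted p under 0.05 there were 657 negative (5.46%) and 239 positive genes (1.99%). With a block for the replicate number inside each cell type, 217 genes passed (1.8%), 176 negative (1.46%) and 41 positive (0.341%), and all 35 were among them. Over all genes tested, 54.6% of the differences were negative and the median was -0.03. The median standard error was 0.25 for a difference of effects and 0.17 for an effect within either cell type.

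Of the 33 genes with a negative difference, 31 rose in nTreg KO by a test of their own, where 2.18% of all genes rose and 0.341% fell. Only 4 of the 33 rose in iTreg KO (Atf5, Derl3, Herpud1 and AI662270), where 0.166% of all genes rose and 0.0166% fell. The median KO-minus-WT change of the 33 genes was 1.59 in nTreg and 0.29 in iTreg on the log2 scale, and in 14 of them the iTreg estimate lay below 0. Igsf3 and Cmtm7 passed the test of the difference without passing in either cell type alone. Since nTreg rises enter the contrast with a minus sign, the 263 genes that rose in nTreg were also read whole. Their differences were negative in 260, 228 had an iTreg estimate above 0, and their median change was 1.0 in nTreg and 0.30 in iTreg, but the difference passed in 31. With the replicate block it passed in 100 of the 263. For the rest, a rise in nTreg was not shown to differ from the iTreg change. The 263 genes were chosen by the nTreg rise that the difference subtracts. Negative signs and a larger nTreg median were thus favoured by the choice, and these counts are no test. The tests within a cell type use the same libraries as the difference and are not independent of it.

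**Figure D1:**
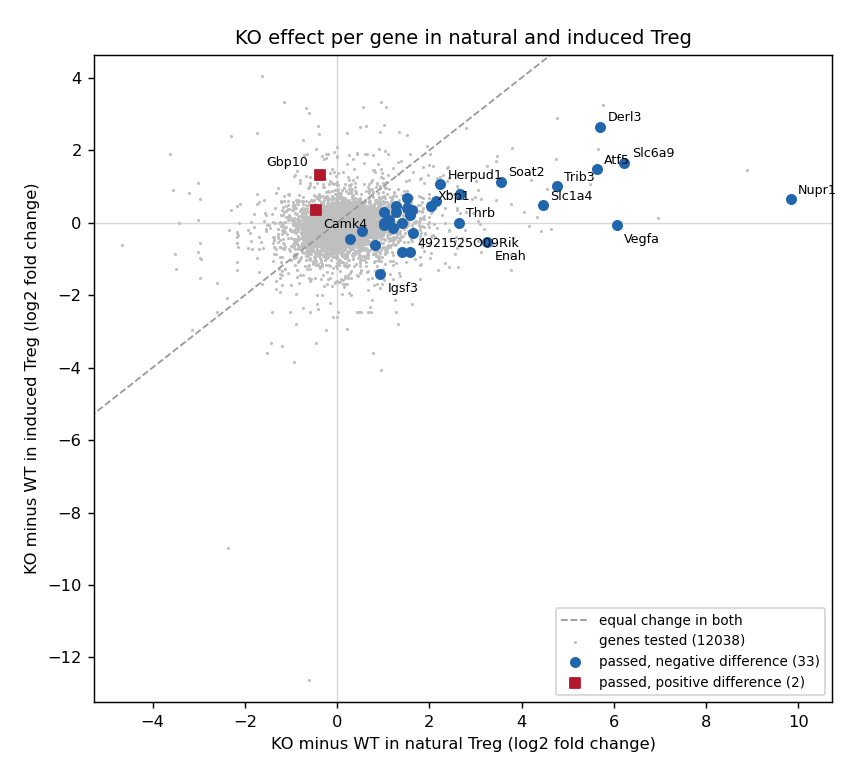
KO-minus-WT change per gene (log2 fold change, edgeR) in natural Treg on the x axis and in induced Treg on the y axis, for the 12038 genes tested. The dashed line marks an equal change in both, the 33 blue circles are genes that passed with a negative difference and lie below it, and the 2 red squares are Gbp10 and Camk4, which lie above it.

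The levels behind these differences showed where they arose. In 31 of the 33 genes the mean level with the WT label was higher in iTreg than in nTreg, against 52.1% of all genes tested. All 3 iTreg WT libraries lay above all 3 nTreg WT libraries in 28 of the 33 (37.4% of all genes). With the KO label the iTreg mean was the lower one in 20 of the 33 (49.5% of all genes). All iTreg KO libraries lay below all nTreg KO libraries in 17 genes (32.8% of all genes) and above them in 7 (34.1%). In the other 9 the KO libraries of the 2 cell types overlapped. In all 33 genes every nTreg KO library lay above every nTreg WT library (15.7% of all genes). In iTreg, all KO libraries were higher in 17 genes, all lower in 5 and overlapping in 11, where 4.68% of all genes were all higher and 4.95% all lower. The genes were chosen by the contrast that these levels make up, so the counts describe it and do not test it.

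The log2 scale measures change relative to the WT level of each cell type. Read as a change in CPM, a comparison added after the data were seen, the difference kept its negative sign in 31 of the 33 genes. It was positive for Bcat1, which gained 39.2 CPM in nTreg and 51.0 CPM in iTreg, and for Nupr1, which gained 10.7 CPM in nTreg and 29.9 CPM in iTreg.

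**Figure D2:**
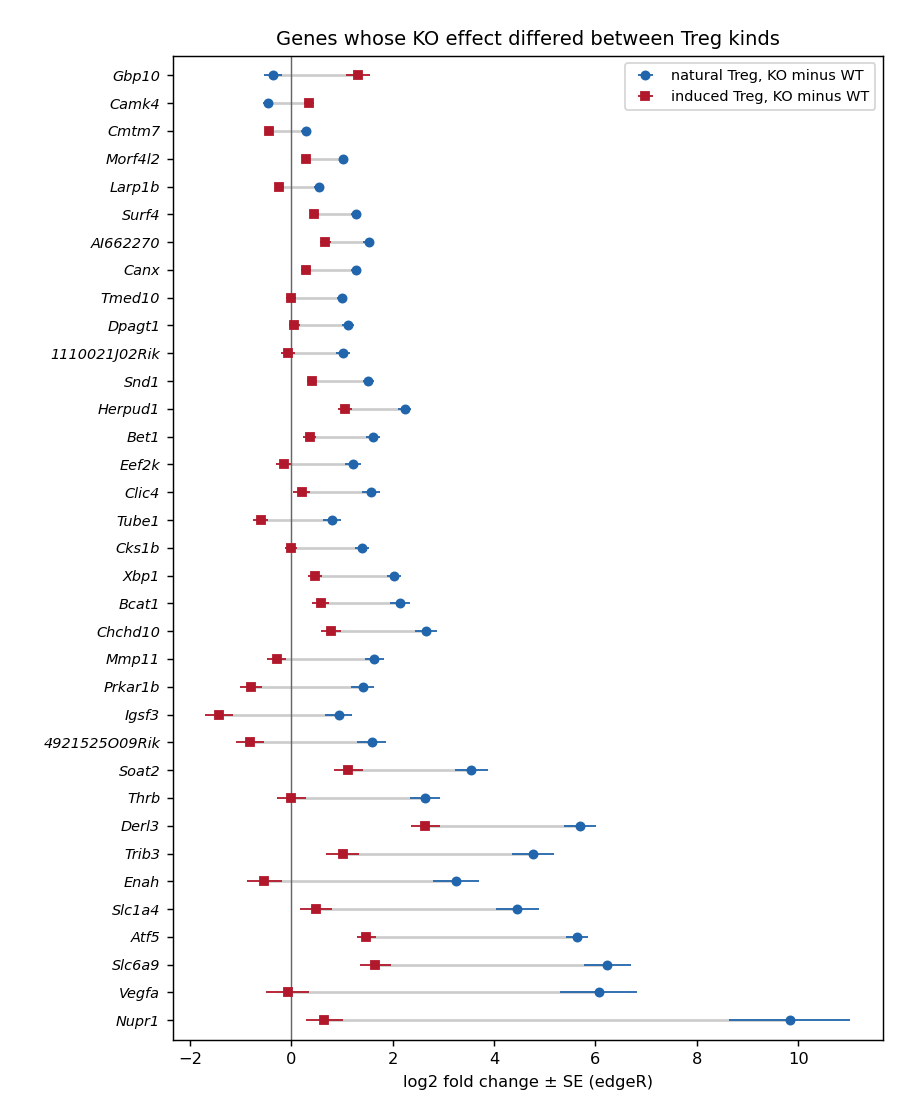
KO-minus-WT log2 fold change with its standard error (edgeR) in natural Treg (blue circles) and induced Treg (red squares), for the 35 genes that passed the test of the difference, ordered by the difference. Grey lines join both values of a gene. The blue circle lies to the right in all but the uppermost 2 genes, and the fitted nTreg value of Nupr1, which had no read in nTreg WT, is no bound.

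With 8 residual degrees of freedom over 12038 genes, single libraries mattered for the count. Without 1 nTreg WT library (1, 2 or 3) the test passed 5, 13 or 1 genes, and without 1 nTreg KO library 16, 12 or 16. Without 1 iTreg WT library it passed 20, 14 or 52 genes, and without 1 iTreg KO library 31, 58 or 21. Atf5 passed in all 12 of these fits, with a highest adjusted p of 0.000637. Xbp1, Snd1 and Cks1b lost the call only without nTreg WT 3, and Slc6a9, Slc1a4, Tmed10, Trib3, Mmp11, Derl3 and Prkar1b only without nTreg WT 1 or nTreg WT 3, each with a highest adjusted p of 0.0554. Canx lost it without any 1 of the nTreg WT libraries, again at up to 0.0554. The other genes passed in 1 to 6 of the 12 fits, with adjusted p up to 0.163. No sign changed in any of them.

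Transcription factors of the integrated stress response and of the unfolded protein response led the ranking. Atf5, a bZIP factor of the ATF4 pathway (chromosome 7, 44812256 to 44816658, minus strand), was counted at 6.35, 4.53 and 4.56 CPM in nTreg WT and at 236, 265 and 261 CPM in nTreg KO. In iTreg it was at 11.9, 9.87 and 11.2 CPM in the WT-labelled libraries and at 37.6, 33.1 and 21.8 CPM in the KO-labelled ones. Every KO library was above every WT library in both cell types, and the nTreg KO libraries stood above all others. The rise was 49.8-fold in nTreg and 2.80-fold in iTreg, a difference of -4.15 (SE 0.28, adjusted p = 4.2e-05, edgeR). Exons of Atf5 share 82 bases with Nup62 on the other strand, whose own difference did not pass (-0.52, adjusted p = 0.42).

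Xbp1, the factor downstream of IRE1, stood at 89.8, 90.0 and 101 CPM in nTreg WT and 367, 405 and 370 CPM in nTreg KO. In iTreg the levels were 288, 289 and 230 CPM in the WT-labelled libraries and at 440, 368 and 311 CPM in the KO-labelled ones. The iTreg libraries of both labels thus lay between 230 and 440 CPM, above all nTreg WT libraries. Xbp1 rose 4.07-fold in nTreg (adjusted p = 1.1e-05), while the iTreg ratio was 1.39-fold (adjusted p = 0.35), and the difference was -1.55 (SE 0.19, adjusted p = 0.012, edgeR). Among the 11 factors and sensors of this response tested, Xbp1 was the 1 that passed (0.274% of all genes did, with a negative difference). Of the 11 differences 9 were negative (54.6% of all genes), with a median of -0.60 (-0.03 over all genes). The median change was 0.78 in nTreg and 0.22 in iTreg.

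The 3 sensors did not pass. Eif2ak3, encoding PERK, had a difference of -0.79 (adjusted p = 0.20, edgeR), Atf6 of -0.60 (adjusted p = 0.33) and Ern1 of -0.61 (adjusted p = 0.89). With the replicate block Eif2ak3 passed (adjusted p = 0.0091), as did Creb3l2, a factor of the same bZIP kind (-1.65, adjusted p = 0.11, and 0.013 with the block). Of all genes, 1.46% passed with a negative difference under the block. Hspa5, the ER chaperone BiP and a standard reporter of ER stress, rose in both cell types: from 505 to 766 CPM up to 2103 to 2701 CPM in nTreg, and from 542 to 605 CPM up to 1306 to 2061 CPM in iTreg. Its difference of KO effects was -0.39 (SE 0.26, adjusted p = 0.88), so a difference between the cell types was not detected for it. Ddit3 and Atf4, the factors CHOP and ATF4, had differences of -0.92 (adjusted p = 0.50) and -0.65 (adjusted p = 0.74) and did not pass either.

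The other members of the integrated stress response list that passed were Trib3, Vegfa and Nupr1. Vegfa is also in the list of glycolysis and hypoxia. Trib3, a pseudokinase that feeds back on ATF4 and CHOP, was at 2.81, 1.98 and 4.65 CPM in nTreg WT and 70.7, 72.9 and 125 CPM in nTreg KO, and at 39.7, 34.3 and 26.5 CPM in iTreg WT and 63.9, 98.0 and 41.5 CPM in iTreg KO. The KO libraries were all higher in both cell types, by 27.2-fold in nTreg and 2.02-fold in iTreg (difference -3.75, SE 0.51, adjusted p = 0.012, edgeR). Vegfa, the secreted angiogenic factor, was at 0.886, 0.283 and 0.372 CPM in nTreg WT, a total of 12 reads, and at 25.7, 39.1 and 35.3 CPM in nTreg KO. In iTreg it was at 149, 145 and 41.8 CPM in the WT-labelled libraries and at 96.2, 164 and 60.7 CPM in the KO-labelled ones. The iTreg groups overlapped and all 6 iTreg libraries exceeded every nTreg library. The ratio was 66.8-fold in nTreg and 0.954-fold in iTreg (difference -6.13, SE 0.90, adjusted p = 0.017).

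Nupr1, a small stress-induced nuclear protein, had no read in the 3 nTreg WT libraries and 6.49, 10.5 and 15.1 CPM in nTreg KO. Against a floor of 3 reads over the nTreg WT group it was at least 88.1-fold higher with the KO label. In iTreg its level was 70.8, 55.7 and 30.2 CPM in the WT-labelled libraries and at 114, 55.5 and 76.4 CPM in the KO-labelled ones. These iTreg groups overlapped, and the ratio of their pooled levels was 1.53. The adjusted p of the difference was 0.033 (edgeR), and the fitted difference of -9.19 depends on the prior count.

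**Figure D3:**
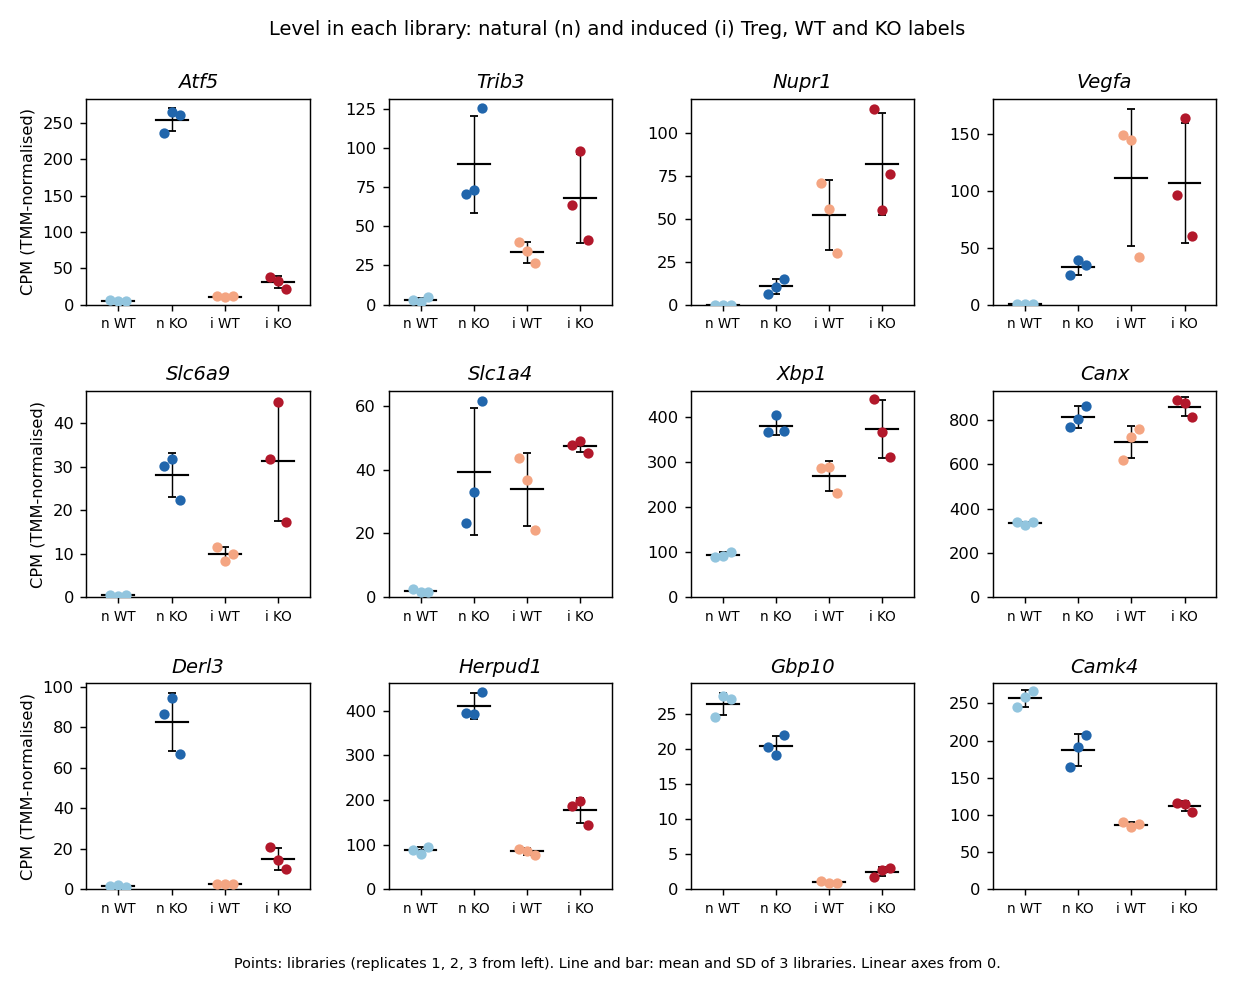
Level of 12 genes in every library as TMM-normalised CPM on linear axes from 0, for nTreg and iTreg (n, i) with the WT and KO labels. Points are libraries, lines and bars the mean and SD of 3. In the panels of Atf5 and Derl3 the nTreg KO libraries stand above all others, in those of Vegfa and Nupr1 the iTreg libraries are high with both labels, and in those of Gbp10 and Camk4 the nTreg libraries are above the iTreg ones.

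Of the 25 integrated stress response factors tested, 4 passed with a negative difference (0.274% of all genes) and 8 with the replicate block (1.46%), which added Bbc3, Chac1, Cebpb and Eif4ebp1. The differences of 21 were negative (54.6% of all genes), with a median of -0.70 (-0.03 over all genes). The median change was 1.35 in nTreg and 0.33 in iTreg. These medians of the list stay the same with Nupr1 at its bound. In nTreg 11 of the 25 rose (2.18% of all genes), and in iTreg 1, Atf5 (0.166%).

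Genes of amino acid uptake and synthesis passed as well. Slc6a9, the glycine transporter GlyT1, was at 0.443, 0.142 and 0.465 CPM in nTreg WT (9 reads in all) and 30.2, 31.8 and 22.4 CPM in nTreg KO, and at 11.6, 8.21 and 9.94 CPM in iTreg WT and 31.7, 45.0 and 17.2 CPM in iTreg KO. The KO groups of both cell types covered overlapping levels, while iTreg WT was above nTreg WT in every library (difference -4.57, SE 0.58, adjusted p = 0.012, edgeR). Slc1a4, the neutral amino acid transporter ASCT1, was at 2.36, 1.70 and 1.40 CPM in nTreg WT and 23.3, 33.0 and 61.6 CPM in nTreg KO, against 43.7, 36.6 and 21.1 CPM and 47.8, 48.9 and 45.3 CPM in iTreg. It rose 22-fold in nTreg, and its iTreg ratio of 1.40-fold did not pass (adjusted p = 0.79). The difference was -3.98 (SE 0.53, adjusted p = 0.012).

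Bcat1, the cytosolic branched-chain aminotransferase, was at 13.4, 12.3 and 9.03 CPM in nTreg WT, 52.1, 52.2 and 48.0 CPM in nTreg KO, 98.8, 102 and 105 CPM in iTreg WT and 135, 200 and 124 CPM in iTreg KO. KO exceeded WT without overlap in both, 4.43-fold and 1.5-fold (difference -1.56, SE 0.25, adjusted p = 0.026, edgeR). Asns, asparagine synthetase, had a larger difference of -2.98 (SE 0.61) that did not pass (adjusted p = 0.091, and 0.0020 with the block). Among 14 amino acid transporters tested, 2 passed (0.274% of all genes) and 3 with the block (1.46%; added: Slc7a1), with a median difference of -0.24. That median was -0.09 without nTreg WT 1. Among 17 enzymes of amino acid and one-carbon metabolism, 1 passed and 6 with the block, with a median of -0.69. None of 20 aminoacyl-tRNA synthetases passed by edgeR, although 9 had a negative difference at an unadjusted p under 0.05 (5.46% of all genes). By DESeq2 2 passed (0.93%), by limma voom 5 (0.773%) and with the block 4 (1.46%), Mars, Sars, Iars and Eprs, and the median of the list was -0.46.

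The genes of the ER itself were next. Derl3, a derlin of ER-associated degradation (chromosome 10, 75893413 to 75895941, plus strand), was at 1.77, 2.12 and 1.02 CPM in nTreg WT and 86.7, 94.5 and 66.7 CPM in nTreg KO, and at 2.48, 2.34 and 2.35 CPM in iTreg WT and 20.8, 14.3 and 10.1 CPM in iTreg KO. WT levels were low in both cell types, slightly higher in iTreg, and all nTreg KO libraries lay above all iTreg KO libraries. The rise was 52.0-fold in nTreg and 6.25-fold in iTreg (difference -3.06, SE 0.43, adjusted p = 0.012, edgeR), and the difference did not pass by limma voom (-2.92, adjusted p = 0.067). Herpud1, an ER membrane protein that binds HRD1, was at 88.3, 78.7 and 93.8 CPM in nTreg WT, 395, 393 and 443 CPM in nTreg KO, 91.1, 85.9 and 77.0 CPM in iTreg WT and 187, 198 and 145 CPM in iTreg KO. Its WT levels overlapped between the cell types, unlike those of Derl3. Herpud1 rose 4.72-fold in nTreg and 2.08-fold in iTreg (difference -1.18, SE 0.18, adjusted p = 0.017).

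Canx, the lectin chaperone calnexin (chromosome 11, 50293961 to 50325673, minus strand), was at 338, 327 and 338 CPM in nTreg WT and 770, 806 and 866 CPM in nTreg KO. In iTreg it was at 621, 724 and 759 CPM in the WT-labelled libraries and at 894, 876 and 813 CPM in the KO-labelled ones. The KO libraries of both cell types ranged over the same levels, and nTreg WT lay apart below. The difference was -0.99 (SE 0.14, adjusted p = 0.012, edgeR), from a 2.43-fold rise in nTreg and an iTreg ratio of 1.23-fold that did not pass (adjusted p = 0.46).

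Among 28 ER chaperones and folding enzymes tested, Canx was the 1 that passed, and 11 passed with the block, among them Pdia5, Sdf2l1, Pdia6, Pdia4 and Hsp90b1. All 28 differences were negative, with a median of -0.73, and the median change was 1.30 in nTreg and 0.63 in iTreg. By their own tests 22 of them rose in nTreg (2.18% of all genes) and 9 in iTreg (0.166%). Of all genes, 0.274% passed with a negative difference, and 1.46% with the block. The 45 genes of ER translocation, glycosylation and export also all had negative differences, with a median of -0.46. Of these Tmed10, a p24 cargo receptor (-1.02, SE 0.14, adjusted p = 0.012), and Surf4, a cargo receptor of ER export (-0.81, adjusted p = 0.026), passed, and 10 passed with the block. Tmed10 levels were 110 to 112 CPM in nTreg WT, 218 to 234 CPM in nTreg KO, 123 to 156 CPM in iTreg WT and 133 to 145 CPM in iTreg KO, so that nTreg KO stood apart from the other 3 groups. By contrast the median over 26 genes of ER-associated degradation was -0.11, and -0.07 without iTreg KO 2. There 19 differences were negative, Derl3 and Herpud1 passed, and the block added Syvn1. All genes tested had 54.6% negative differences and a median of -0.03.

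Promoters of the genes that passed are shown because 2 sequence elements of these pathways are known: the ER stress element, which binds NF-Y with ATF6 or XBP1 (searched as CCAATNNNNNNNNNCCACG), and the composite site of C/EBP and ATF4 (searched as TGATGNAA), both on either strand. The 250 bases before each RefSeq start were taken from RefSeq, build GRCm38.p6, for 29 of the 33 genes with a negative difference. The ER stress element was found in 2 of 29 (6.9%), Canx and Derl3, against 0.176% of 9646 tested genes with a promoter and 0.113% of all 32851 promoters. The composite site was found in 5 of 29 (17.2%), namely Chchd10, Nupr1, Herpud1, Igsf3 and Eef2k, against 2.53% of tested genes and 3.45% of all promoters. None of the 29 held both in the searched form within these 250 bases. The Herpud1 line ends in ccaatggatggcagccac, which follows the letters of the ER stress element up to the window's end. Whether the element is complete there was not read. A match is a description of letters and not a site. The lines run 5′ to 3′ on the gene's strand, with the fixed letters of each match in capitals, and show Canx at chr11:50325674-50325923 (minus strand), Derl3 at chr10:75893148-75893397 (plus), Syvn1 at chr19:6046326-6046575 (plus), and the composite site genes Herpud1 at chr8:94386179-94386428 (plus), Nupr1 at chr7:126625471-126625720 (minus) and Chchd10 at chr10:75932880-75933129 (plus).
Canx: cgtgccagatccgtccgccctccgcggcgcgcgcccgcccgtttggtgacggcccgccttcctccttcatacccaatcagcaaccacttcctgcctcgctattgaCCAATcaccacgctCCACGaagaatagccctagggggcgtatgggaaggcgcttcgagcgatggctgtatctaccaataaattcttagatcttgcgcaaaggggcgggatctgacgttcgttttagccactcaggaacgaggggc
Derl3: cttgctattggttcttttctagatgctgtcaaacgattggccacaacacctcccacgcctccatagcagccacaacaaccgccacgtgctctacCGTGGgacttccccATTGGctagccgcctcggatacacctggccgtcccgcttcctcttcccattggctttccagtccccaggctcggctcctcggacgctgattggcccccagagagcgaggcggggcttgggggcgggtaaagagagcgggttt
Syvn1: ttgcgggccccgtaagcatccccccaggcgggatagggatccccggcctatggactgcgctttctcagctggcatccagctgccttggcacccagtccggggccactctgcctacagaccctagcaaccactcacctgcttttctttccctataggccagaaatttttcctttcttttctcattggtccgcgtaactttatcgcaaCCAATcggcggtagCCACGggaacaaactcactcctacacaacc
Herpud1: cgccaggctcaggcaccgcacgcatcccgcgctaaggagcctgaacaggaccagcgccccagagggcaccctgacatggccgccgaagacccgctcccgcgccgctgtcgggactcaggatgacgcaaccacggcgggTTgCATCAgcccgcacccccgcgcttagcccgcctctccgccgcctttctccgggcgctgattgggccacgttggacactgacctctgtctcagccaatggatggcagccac
Nupr1: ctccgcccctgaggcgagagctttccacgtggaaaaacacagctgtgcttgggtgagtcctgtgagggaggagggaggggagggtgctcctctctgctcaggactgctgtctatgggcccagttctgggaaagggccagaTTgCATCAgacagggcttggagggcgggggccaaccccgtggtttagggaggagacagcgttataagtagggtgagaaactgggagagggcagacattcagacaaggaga
Chchd10: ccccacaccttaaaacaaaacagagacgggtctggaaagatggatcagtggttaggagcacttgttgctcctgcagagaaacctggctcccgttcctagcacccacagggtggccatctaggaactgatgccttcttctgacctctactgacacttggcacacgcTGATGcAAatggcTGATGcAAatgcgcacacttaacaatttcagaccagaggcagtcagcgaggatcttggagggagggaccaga

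The element in Derl3, and the composite sites in Herpud1 and Nupr1, read on the opposite strand, and Chchd10 held 2 composite sites. Syvn1, the targeted gene, is shown beside the genes that passed since it holds the ER stress element. Among the ER chaperones and folding enzymes, 8 of 25 promoters matched (32.0%) held the element, and Canx was the only one of that list whose difference passed.

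Chchd10, a mitochondrial protein, and Mmp11, a secreted metalloproteinase, lie with Derl3 within 44335 bases of chromosome 10. Chchd10 was at 31.3, 27.3 and 27.6 CPM in nTreg WT, 177, 201 and 167 CPM in nTreg KO, 85.2, 93.3 and 86.5 CPM in iTreg WT and 135, 216 and 108 CPM in iTreg KO (difference -1.87, SE 0.29, adjusted p = 0.017, edgeR). Mmp11 was at 8.71, 9.34 and 8.47 CPM in nTreg WT, 24.3, 32.1 and 26 CPM in nTreg KO, 22.1, 16.6 and 15.4 CPM in iTreg WT and 14.8, 17.5 and 12 CPM in iTreg KO (difference -1.93, SE 0.27, adjusted p = 0.012). Both were higher in all nTreg KO libraries than in nTreg WT, and in iTreg KO Chchd10 was all higher while Mmp11 overlapped. Exons of the pair share 155 bases on opposite strands, and without strand in the counting, reads there cannot be told apart. Smarcb1, which lies between Derl3 and Mmp11, did not pass (-0.30, adjusted p = 0.74).

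Further genes passed. Bet1, a SNARE of ER-to-Golgi transport (-1.25), Dpagt1, the first enzyme of N-glycan assembly (-1.05), Snd1, an RNA-binding nuclease (-1.11), and Soat2, a cholesterol esterifying enzyme (-2.42), rose in nTreg, while their iTreg changes did not pass (adjusted p from 0.25 to 0.94, edgeR). Snd1 was at 149 to 173 CPM in nTreg WT, 422 to 483 CPM in nTreg KO, 232 to 278 CPM in iTreg WT and 316 to 354 CPM in iTreg KO, with the KO label higher in every library of both cell types. Eef2k, the kinase of elongation factor 2, differed by -1.35 and Larp1b, an RNA-binding protein, by -0.78. Thrb, a thyroid hormone receptor, was at 2.23 to 3.40 CPM in nTreg WT, 15.3 to 20.9 CPM in nTreg KO, 2.34 to 4.43 CPM in iTreg WT and 2.75 to 4.38 CPM in iTreg KO. It was high in nTreg KO alone, with a change of 2.64 in nTreg and 0.00 in iTreg (difference -2.65, SE 0.41, adjusted p = 0.017, edgeR).

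For some genes the 2 estimates had opposite signs. Prkar1b, a regulatory subunit of protein kinase A, was at 3.10, 4.67 and 4.0 CPM in nTreg WT, 11, 10.6 and 9.82 CPM in nTreg KO, 9.45, 10.9 and 7.23 CPM in iTreg WT and 5.95, 4.86 and 5.09 CPM in iTreg KO. Its groups did not overlap within either cell type, and the KO label was higher in nTreg and lower in iTreg (1.41, adjusted p = 0.0039, and -0.80, adjusted p = 0.32, edgeR). Igsf3, an immunoglobulin superfamily protein, had the same layout, from 3.10 to 5.40 up to 7.56 to 10.3 CPM in nTreg, and from 5.33 to 8.81 to 2.43 to 3.03 CPM in iTreg (difference -2.35, adjusted p = 0.027). Tube1, epsilon tubulin, was at 6.35 to 7.82 and 11.3 to 13.3 CPM in nTreg WT and KO, and at 67.5 to 96.3 and 50.3 to 65.2 CPM in iTreg. Enah, an actin regulator, had estimates of 3.25 and -0.53 and a difference of -3.79 (adjusted p = 0.017). None of the negative iTreg estimates of these 4 genes passed in iTreg alone.

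Both positive differences joined a lower level with the KO label in nTreg to a higher one in iTreg. Gbp10, an interferon-induced guanylate-binding protein, was at 24.5, 27.5 and 27.1 CPM in nTreg WT, 20.3, 19.1 and 21.9 CPM in nTreg KO, 1.2, 0.904 and 0.904 CPM in iTreg WT and 1.77, 2.75 and 3.02 CPM in iTreg KO. The KO label was lower in all nTreg libraries and higher in all iTreg libraries, yet neither change passed alone (adjusted p = 0.39 and 0.051, edgeR). The difference was 1.69 (SE 0.29, adjusted p = 0.035), and it did not pass by limma voom (1.42, adjusted p = 0.17). Its exons share 1792 bases with another annotated gene on the same strand and it has near-identical paralogs, so the count is uncertain. Camk4, a calcium/calmodulin-dependent kinase, was at 245, 259 and 267 CPM in nTreg WT, 165, 191 and 208 CPM in nTreg KO, 90.5, 83.3 and 87.4 CPM in iTreg WT and 116, 114 and 104 CPM in iTreg KO. It fell by 0.45 in nTreg (adjusted p = 0.031), and its iTreg change of 0.35 did not pass (adjusted p = 0.35), with a difference of 0.81 (SE 0.14, adjusted p = 0.035). Each of the 2 passed in 1 of the 12 fits that left out a library, Gbp10 with adjusted p up to 0.136 and Camk4 up to 0.134.

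Of the next positive genes by p, Ttbk1 (4.48, adjusted p = 0.092), Cyth4 (0.68, adjusted p = 0.10) and Gpm6b (2.23, adjusted p = 0.10) did not pass by edgeR and passed with the block. Gpm6b, a membrane proteolipid, was at 31.1 to 37.5 CPM in nTreg WT, 13.5 to 19.8 CPM in nTreg KO, 4.79 to 8.44 CPM in iTreg WT and 9.69 to 28.1 CPM in iTreg KO. Its groups did not overlap within either cell type and moved in opposite directions.

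T cell programmes gave no gene that passed. Among 18 genes of the Th1 programme, the effector state of interferon-gamma producing T cells, 12 differences were positive and 6 negative. Their median was 0.52, where 54.6% of all genes were negative with a median of -0.03. The median change of the 18 genes was -0.17 in nTreg and 0.39 in iTreg. None passed by edgeR or limma voom, 6 were positive at an unadjusted p under 0.05 (1.99% of all genes) and 2 passed by DESeq2 (0.233%). With the replicate block 4 passed with a positive difference (0.341% of all genes), Cxcr3, Tbx21, Eomes and Ifng. Tbx21, which encodes the Th1 master factor T-bet, was at 9.90, 9.63 and 9.68 CPM in nTreg WT, 11, 9.07 and 9.60 CPM in nTreg KO, 22.5, 39.0 and 35.2 CPM in iTreg WT and 59.3, 127 and 65.5 CPM in iTreg KO. Its nTreg groups overlapped and its iTreg groups did not (difference 1.36, SE 0.40, adjusted p = 0.30, and 0.022 with the block). Cxcr3, a Th1 chemokine receptor, had a difference of 0.87 (adjusted p = 0.19, and 0.034 with the block).

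Interferon response genes, 37 tested, had 29 positive and 8 negative differences (54.6% negative over all genes). Their median was 0.33 (-0.03 over all genes), from -0.19 in nTreg and 0.22 in iTreg. None passed by edgeR or with the block, 5 were positive at an unadjusted p under 0.05 (1.99% of all genes), 4 passed by DESeq2 (0.233%) and 2 by limma voom (0.0831%). The median difference was 0.19 without iTreg WT 2 and 0.71 without iTreg WT 3. Iigp1, an interferon-induced GTPase, was at 128, 152 and 167 CPM in nTreg WT, 135, 145 and 149 CPM in nTreg KO, 129, 108 and 188 CPM in iTreg WT and 328, 547 and 246 CPM in iTreg KO. Only iTreg KO stood apart, with a difference of 1.46 (SE 0.37, adjusted p = 0.19, edgeR). Taken pair by pair, the list's median change in iTreg was 0.46, 0.16 and -0.08 for replicates 1, 2 and 3, so it was not positive in every pair. Gbp10 was not in that list.

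Of 40 cell cycle genes, 40 had a negative difference (54.6% of all genes), with a median of -0.76 (-0.03 over all genes). The median change was 0.49 in nTreg and -0.20 in iTreg. None passed by edgeR, although 20 were below an unadjusted p of 0.05 (5.46% of all genes were, with a negative difference). By DESeq2 1 passed (0.93% of all genes), by limma voom 1 (0.773%) and with the block 11 (1.46%), Cdc45, E2f1 and Mki67 among them. The median change by pair was 0.42, 0.89 and 0.23 in nTreg and -0.03, -0.30 and -0.28 in iTreg, and without nTreg WT 2 the median difference was -0.49. Mki67, the proliferation marker Ki-67, was at 137, 94.0 and 170 CPM in nTreg WT and 190, 177 and 190 CPM in nTreg KO, but at 1577 to 1741 CPM in iTreg WT and 1049 to 1451 CPM in iTreg KO. Its groups did not overlap in either cell type and moved in opposite directions, with a difference of -0.86 (SE 0.25, adjusted p = 0.30, and 0.043 with the block). Cks1b, a cyclin-dependent kinase subunit outside that list, did pass: it was at 9.16, 7.08 and 8.47 CPM in nTreg WT, 25.4, 20.7 and 19.5 CPM in nTreg KO, 102, 114 and 119 CPM in iTreg WT and 109, 119 and 104 CPM in iTreg KO. It rose 2.64-fold in nTreg against an iTreg ratio of 0.992-fold with overlapping groups (difference -1.41, SE 0.18, adjusted p = 0.012).

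**Figure D4:**
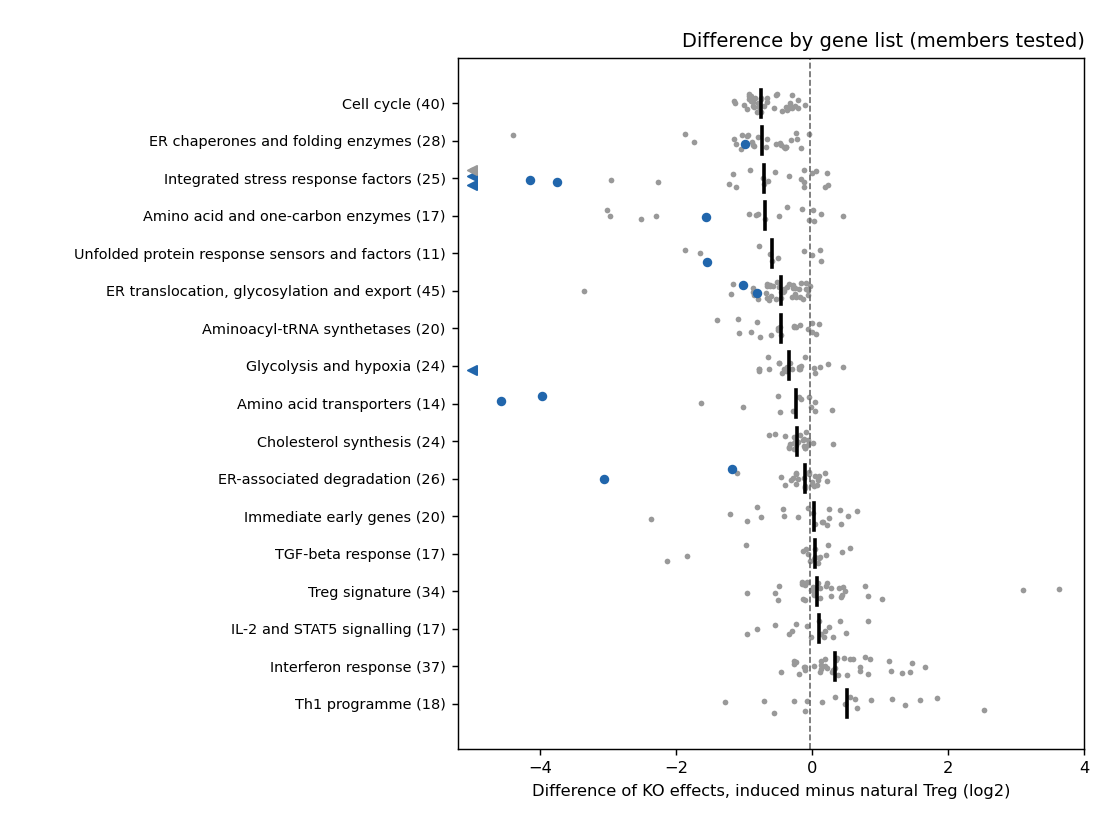
Difference of KO effects (log2, iTreg minus nTreg, edgeR) of each tested member of 17 gene lists, with the number tested in brackets. Blue points passed the test, triangles lie beyond -5, black bars are list medians and the dashed line is the median of all genes (-0.03). Lists are ordered by median, from cell cycle at -0.76 to the Th1 programme at 0.52, and the list of ER-associated degradation lies at -0.11.

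Lists that define Tregs or their signals had medians near that of all genes. For 34 Treg signature genes the median difference was 0.07 (12 negative), for 17 TGF-beta response genes 0.04 and for 17 genes of IL-2 and STAT5 signalling 0.10. The last pair turned negative when 1 library was left out, TGF-beta to -0.07 without iTreg WT 3 and IL-2 and STAT5 to -0.08 without iTreg KO 3. The Treg signature median was 0.16 without iTreg WT 2 and 0.04 without nTreg WT 2. None of these genes passed by edgeR or limma voom. At an unadjusted p under 0.05, 2 Treg signature genes were negative and 3 positive, where 5.46% and 1.99% of all genes were. For the TGF-beta response 1 was negative and 2 positive, and for IL-2 and STAT5 signalling 3 were negative and 2 positive. DESeq2 passed 0, 1 (positive) and 0 of these lists. Of all genes, it passed 0.93% with a negative and 0.233% with a positive difference. Il10 (positive) of the Treg signature, Socs2 (negative) of both the Treg signature and the IL-2 and STAT5 list, and Smad3 (positive) of the TGF-beta response, passed with the block. Of all genes, 0.341% passed with a positive and 1.46% with a negative difference under it. Of 24 genes of glycolysis and hypoxia, Vegfa, which was also counted in the integrated stress response list, passed (0.274% of all genes did, with a negative difference). The median was -0.35, which became -0.70 without iTreg KO 2 and -0.11 without iTreg KO 3. Cholesterol synthesis (24 tested, median -0.22) and immediate early genes (20 tested, median 0.03) had none by edgeR, DESeq2, limma voom or the block and none at an unadjusted p under 0.05. Their medians were -0.09 without nTreg KO 1 (cholesterol synthesis), and -0.16 without nTreg WT 1 and 0.41 without nTreg KO 1 (immediate early genes).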

How the data were processed

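For each of the 12 libraries the authors deposited 1 file of raw counts by gene symbol. Per the submitters' processing notes, cutadapt 1.13, STAR, HTSeq 0.6.1p1, DESeq2 and mm10 were used. What each tool did, the annotation and strandedness are not given in the sources used here. From these counts the difference of KO effects was tested with edgeR 4.0.16 (R 4.3.3; quasi-likelihood, robust, two-sided, TMM) in 1 model with a term per group, after edgeR's expression filter (minimum count 10, minimum total 15). Adjusted p is Benjamini-Hochberg over all 12038 genes tested, with a threshold of 0.05. No list or set was tested. For a bound, 3 reads stood in for a group with none, which covers counting error only. Scripts were tested on simulated data.

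The members and gene lists were chosen with earlier results of these data known. Genes named were Syvn1, the genes that passed at mean log2 CPM 1 or more (up to 15 per direction, or the 5 of smallest p where fewer passed), up to 4 members of smallest p per list and 8 regulators. The other genes that passed, and those the block added, were named after their values were seen.

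Within a cell type, same-numbered WT and KO libraries deviated together (r from 0.44 to 0.57 in nTreg and 0.31 to 0.63 in iTreg, against -0.52 to 0.14 for different numbers), so the numbers pair libraries there. Across cell types they did not (-0.05 to 0.10). What the numbers mark is not stated. The main model has no term for the pairing within a cell type. With the replicate block 4 residual degrees of freedom are left, against 8 in the main model. Of the iTreg libraries numbered 2, the WT one had Xist reads and the KO one is not among those that did. Xist itself passed with the replicate block (-11.8, adjusted p = 0.022, edgeR), so block results rest on pairs that were not alike in it. No 2 libraries held identical values. Coordinates are from GENCODE M21 (GRCm38), promoters from RefSeq.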

Additional observations from a re-analysis of the deposited data

Results flagged for a closer look

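These 35 genes stand out because the test of the difference between the cell types itself passed (edgeR, Benjamini-Hochberg), and the value in brackets is that difference in log2 units, iTreg minus nTreg. Stress response factors and amino acid genes were Atf5 (-4.15), Trib3 (-3.75), Vegfa (-6.13), Nupr1 (-9.19), Xbp1 (-1.55), Slc6a9 (-4.57), Slc1a4 (-3.98) and Bcat1 (-1.56). Genes of the ER and of export from it were Canx (-0.99), Derl3 (-3.06), Herpud1 (-1.18), Tmed10 (-1.02), Surf4 (-0.81), Dpagt1 (-1.05) and Bet1 (-1.25). The other genes with a negative difference were Cks1b (-1.41), Snd1 (-1.11), Mmp11 (-1.93), Prkar1b (-2.21), Morf4l2 (-0.73), Enah (-3.79), Chchd10 (-1.87), Thrb (-2.65), Larp1b (-0.78), Tube1 (-1.41), Igsf3 (-2.35), Eef2k (-1.35), 4921525O09Rik (-2.40), Cmtm7 (-0.73), Clic4 (-1.37), 1110021J02Rik (-1.09), Soat2 (-2.42) and AI662270 (-0.86). Positive differences were those of Gbp10 (1.69) and Camk4 (0.81). The value of Nupr1 is a fitted one against a group without reads and is no bound.

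Near the threshold, Soat2 (adjusted p = 0.038, edgeR) and AI662270 (adjusted p = 0.040) were the last to pass, and Carhsp1 and Anln (adjusted p = 0.056 each) the first that did not, with differences of -1.17 and -1.34. Exons of 1110021J02Rik share 4584 bases with Cmtr1 on the other strand, and those of AI662270 share 491 bases with the pseudogene Gm11427 on the same strand, so both counts are uncertain.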

How the results depend on the processing

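The count of genes that passed was 35. It was 34 with RLE size factors, 28 without a filter on low counts, 37 with a CPM of 5 in 3 libraries and 34 after every library was thinned to the smallest total. It moved to 140 with DESeq2 (all 35 among them), to 103 with limma voom (33 of the 35, without Derl3 and Gbp10), and to 217 with the replicate block (all 35). It was 1 without both nTreg libraries numbered 2 and 1 without the 3 libraries with Xist reads (nTreg WT 3, nTreg KO 3 and iTreg WT 2), the gene left being Atf5 in each. Leaving out 1 library gave 1 to 58 genes. Fewer libraries leave fewer degrees of freedom, and other causes of these moves were not tested. Over 21 alternatives the 35 genes gave 735 values, of which 0 changed sign, 435 kept and 300 lost the call, and Atf5 alone passed in all (adjusted p up to 0.019). Of 483 list medians, 7 moved by more than the spread between libraries, all of them among amino acid transporters and B cell markers. The nTreg WT libraries 1 and 2 were the shallowest, and nTreg WT levels of Slc6a9, Vegfa and Nupr1 rest on 9, 12 and 0 reads.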

Other observations

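The KO-minus-WT changes of the 2 cell types, which share no library, had a Pearson correlation of 0.19 and a Spearman correlation of 0.21 across the 12038 genes, which are not independent replicates. Of the 22 genes whose change passed in iTreg, 4 passed the test of the difference (edgeR), and 18 of the 20 that rose in iTreg had a negative difference. Clic4, a chloride channel protein, was at 32.8 to 39.2 CPM in nTreg WT, 85.4 to 146 CPM in nTreg KO, 161 to 188 CPM in iTreg WT and 190 to 209 CPM in iTreg KO, a difference of -1.37 (adjusted p = 0.035).

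Il10, which encodes an anti-inflammatory cytokine, was at 15.8, 8.78 and 6.79 CPM in nTreg WT, 7.88, 7.69 and 4.96 CPM in nTreg KO, 0.150, 0.753 and 0.0904 CPM in iTreg WT and 1.04, 7.18 and 0.477 CPM in iTreg KO. The highest iTreg value was that of iTreg KO 2, and the difference of 3.62 (SE 1.22) did not pass by edgeR (adjusted p = 0.42, and 0.0077 with the replicate block).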
